A study of Mus musculus with 6 samples.

Results

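The genes described here encode the main heat shock chaperones of the mammalian cytosol and mitochondrion, and their regulator. The 10 members were taken by gene symbol: Hsp90aa1, Hsp90ab1, Hspa8, Hspa1a, Hspa1b, Dnajb1, Hsph1, Hspd1, Hspe1 and Hsf1. Each had 1 row among the 56691 genes of the deposited table. RNA sequencing covered 6 libraries of wild-type RAW246.7 cells (the labels' spelling), a mouse macrophage line. All of them had been pretreated with LPS, the bacterial lipopolysaccharide that activates macrophages, so no library shows resting cells. After that, 3 libraries came from 24 h of culture on MSA-DA hydrogels and 3 from 24 h on MSA-ZW hydrogels. The series title names fibrin networks on macroporous gels of differing protein absorption, so the comparison asks whether macrophage chaperone transcripts differed between the gels. The labels do not say whether libraries of one gel are separate cultures, so the p-values reflect only the spread between libraries, which may be technical.

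Chaperones bind unfolded or partly folded proteins and keep them from aggregating. In the cytosol HSP70 proteins take up such clients with the help of J-proteins and are reset by nucleotide exchange factors of the HSP110 type, and many clients, among them kinases and steroid receptors, pass on to HSP90. In the mitochondrial matrix HSP60 forms a folding chamber that HSP10 caps. Heat and other protein-damaging stress free the transcription factor HSF1, which binds heat shock elements, inverted repeats of the bases GAA, and raises the inducible members many-fold. In activated macrophages HSP90 is known to hold signalling kinases in a usable state.

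Count totals were 14374912 to 18346615 on MSA-DA against 16347934 to 18193026 on MSA-ZW. Together the 10 members took 1.22 ± 0.00999% of all counts on MSA-DA against 1.17 ± 0.0191% on MSA-ZW (SD, n = 3). Of 10 macrophage markers 9 could be tested. On MSA-DA 5 were lower (Lyz2, Csf1r, Cd14, Fcgr1 and Spi1) and 1 higher (Itgam), at edgeR adjusted p below 0.05. Of all tested genes 6.5% were lower and 6.92% higher. CPM is the count of a gene scaled by the size of its library. Among all genes averaging 64 CPM or more 26.8% were called in either direction, so the marker count is not read as a result about cell identity. The 10 markers summed to 4953 to 5020 CPM on MSA-DA against 5691 to 5762 CPM on MSA-ZW. Lyz2 made up much of this gap, at means of 1769 CPM on MSA-DA against 2291 CPM on MSA-ZW. Itgam, Cd68, Ptprc and Adgre1 averaged higher on MSA-DA. Mertk was nearly absent from all libraries. Summed over 14 markers of lymphocytes, neutrophils, fibroblasts, epithelium and endothelium the level was 0.761 to 0.978 CPM on MSA-DA against 0.987 to 2.05 CPM on MSA-ZW. Among them Cd3g, Ncr1, Dcn and Epcam had no count in any library. Mitochondrially encoded RNA took a share of counts of 3.11 ± 0.0136% on MSA-DA against 2.74 ± 0.0268% on MSA-ZW. The 18S-like locus Rn18s-rs5 made up 0.132 to 0.141% on MSA-DA against 0.238 to 0.449% on MSA-ZW, highest in MSA-ZW replicate 2. The part of these differences in the chaperone results was not tested, apart from a fit without mitochondrial and ribosomal-RNA-like loci, which made the same 4 calls among the members.

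Cells on MSA-DA held more transcript of the stress-inducible HSP90 isoform, of the HSP110 exchange factor and of mitochondrial HSP60, and slightly less of the constitutive HSP90 isoform. Hsp90aa1 was 1.13-fold higher, Hsph1 1.08-fold higher, Hspd1 1.07-fold higher and Hsp90ab1 1.04-fold lower on MSA-DA. The other 5 tested members, Hspa8, Hspa1b, Dnajb1, Hspe1 and Hsf1, did not pass, and Hspa1a had too few reads to be tested. So 3 of 9 tested members rose and 1 fell. Over all 12467 tested genes 13.4% passed, 6.92% higher and 6.5% lower on MSA-DA (edgeR quasi-likelihood test, Benjamini-Hochberg adjusted p below 0.05). Most members have many reads, and among 3695 such genes, averaging 64 CPM or more, 26.8% passed. Groups did not overlap for 5 of the 9 members, Hsp90aa1, Hsp90ab1, Hsph1, Hspd1 and Hspa1b, and for 28.4% of all tested genes. The median log2 difference over all tested genes was 0.00085. In RNA from whole cultures, a change in fewer cells and a smaller change in every cell cannot be told apart.

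**Figure D1:**
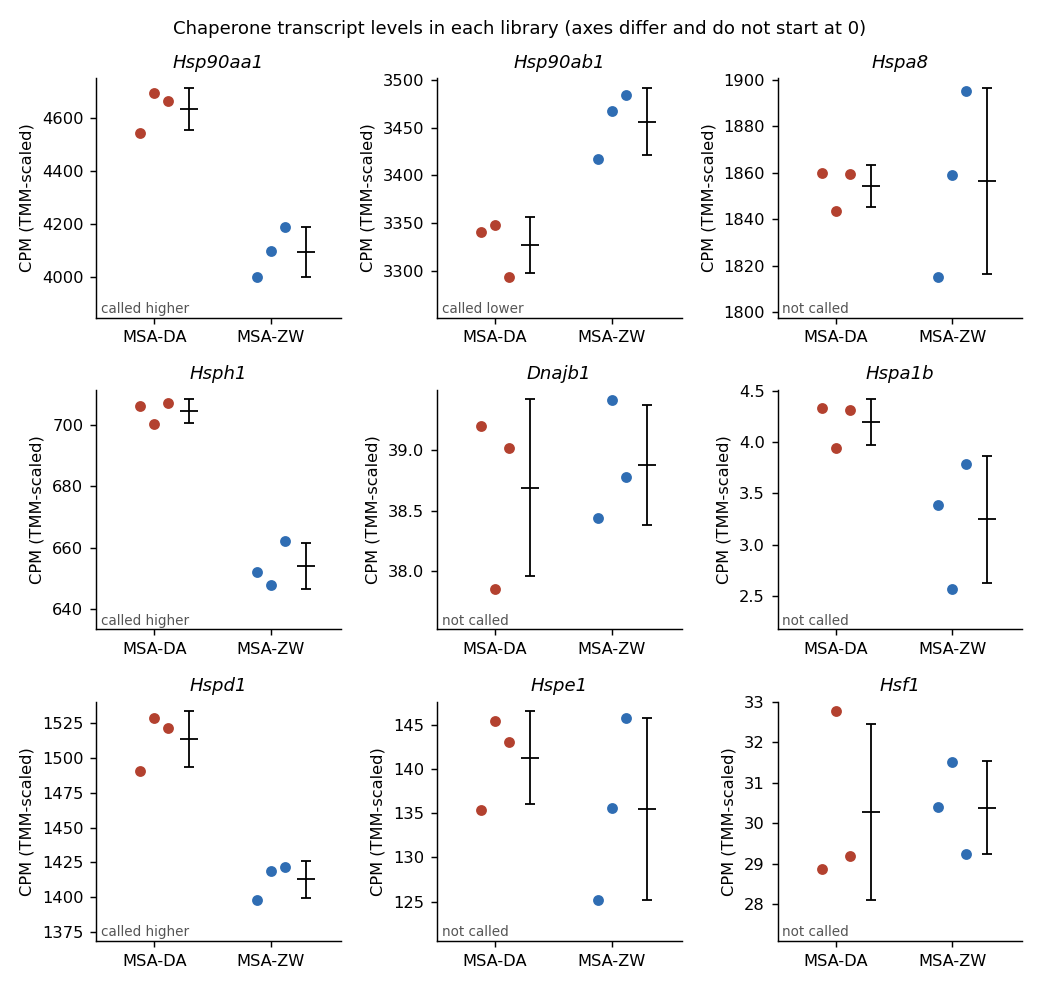
Level of each of the 9 tested chaperone transcripts in every library, in CPM scaled by TMM factors, with MSA-DA left of MSA-ZW. Points are libraries, and the bar beside them is the mean with its SD (n = 3). Vertical axes differ between panels and do not start at 0. The groups separate for Hsp90aa1, Hsp90ab1, Hsph1, Hspd1 and Hspa1b, and overlap for the other 4.

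Promoter sequences show where heat shock elements lie in members that rose and members that did not. RefSeq windows on GRCm38.p6, an earlier build than that of the counts, running from 250 bases before to 50 after each start, were found for 6 members. Hspa8, Hsp90aa1, Hsp90ab1 and Hsf1 had none. Both strands were searched for 2 adjoining inverted units, GAANNTTC or TTCNNGAA, and for 3 such units, GAANNTTCNNGAA or TTCNNGAANNTTC, the longer matches holding the shorter. Over all 32851 windows of 300 bases, 15.1% held 2 units and 0.603% held 3. Of the 6 members 5 held 2 units and 3 held 3 units in at least 1 window. These counts take any window of a gene, so they cannot be set directly against shares of single windows. The members are also not separate cases, since Hspd1 and Hspe1 count for the same run of units. Hspa1a and Hspa1b have nearly identical windows. Dnajb1 held neither in its windows, and of the 2 RefSeq starts of Hspd1, the one that lies inside Hspe1 had neither in its window.

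The 215 bases between the remaining start of Hspd1 and the start of Hspe1 are shown because both genes read outward from these positions (chr1:55087933-55088147, GRCm38.p6, in the direction of Hspe1). The capitals mark the run of inverted units, whose first base is at -89 from the Hspe1 start and, read on the other strand, at -144 from that start of Hspd1.
Hspe1 and Hspd1: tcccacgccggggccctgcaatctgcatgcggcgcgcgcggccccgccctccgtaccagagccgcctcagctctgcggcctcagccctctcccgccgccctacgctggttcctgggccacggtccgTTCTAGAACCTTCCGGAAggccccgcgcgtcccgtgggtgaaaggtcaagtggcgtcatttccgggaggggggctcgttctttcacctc

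Hsph1, which rose, and the low-count Hspa1 pair are shown for comparison, each on the minus strand with the matching units in capitals. The Hsph1 stretch is the 100 bases before its upstream start (chr5:149636337-149636436), where the 2 units begin at -33 from the start. A run of 3 units lies after that start and is not shown. The Hspa1b stretch (chr17:34959289-34959388) holds 2 units that begin at -104 from the start, and Hspa1a has the same 100 bases (chr17:34972207-34972306) with 0 differences. Over the whole 300-base windows the Hspa1 copies differed at 4 bases, an identity of 98.7%.
Hsph1: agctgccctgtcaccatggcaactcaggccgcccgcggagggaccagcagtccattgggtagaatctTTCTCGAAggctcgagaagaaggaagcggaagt
Hspa1b and Hspa1a: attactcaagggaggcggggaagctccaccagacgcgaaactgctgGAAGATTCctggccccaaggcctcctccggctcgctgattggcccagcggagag
Matches to the units thus stood in Hspd1 and Hsph1, which passed higher on MSA-DA, and also in Hspe1 and Hspa1b, which did not pass. A match is a description of the letters and not a measured binding site.

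Cytosolic HSP90 is made from a pair of genes. Hsp90aa1 encodes HSP90 alpha, the form that heat and activation induce (ENSMUSG00000021270, chromosome 12, 110657039 to 110669162, minus strand, GRCm39). It stood at 4544, 4696 and 4664 CPM on MSA-DA against 3999, 4098 and 4188 CPM on MSA-ZW. All 3 MSA-DA libraries were above all 3 MSA-ZW libraries. The means were 4635 ± 80.2 CPM on MSA-DA against 4095 ± 94.3 CPM on MSA-ZW (SD, n = 3). The log2 difference was 0.18 ± 0.02 (SE, edgeR adjusted p = 1.87e-09), which is 10.5 to 16.0% higher at 95% confidence. It passed in each of the 6 fits that left out 1 library, with log2 differences of 0.16 to 0.19.

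Hsp90ab1 encodes HSP90 beta, the form made in nearly all cells at all times (ENSMUSG00000023944, chromosome 17, 45878701 to 45884197, minus strand, GRCm39). Its levels were 3341, 3348 and 3293 CPM on MSA-DA against 3417, 3468 and 3484 CPM on MSA-ZW. The groups did not overlap, but the gap between the nearest libraries was small beside the level. Hsp90ab1 averaged 3327 ± 29.5 CPM on MSA-DA against 3456 ± 35.2 CPM on MSA-ZW (SD, n = 3), a log2 difference of -0.05 ± 0.02 (SE, edgeR adjusted p = 0.0224). It did not pass once MSA-DA replicate 2, MSA-DA replicate 3 or MSA-ZW replicate 2 was left out (edgeR adjusted p of 0.0614, 0.0980 and 0.0661). The log2 difference was -0.07 to -0.05 in all 6 such fits, and limma on log2(FPKM + 1) gave adjusted p = 0.0525.

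The order of the HSP90 isoforms by length-scaled level differed between the gels. In FPKM, counts scaled to exon length and to the library total, Hsp90aa1 averaged 1175 ± 21.0 and Hsp90ab1 1105 ± 9.26 on MSA-DA, while on MSA-ZW Hsp90aa1 averaged 1043 ± 23.7 and Hsp90ab1 1154 ± 10.9 (SD, n = 3). The ratio of Hsp90aa1 to Hsp90ab1, which does not depend on how libraries are scaled, was 1.04, 1.07 and 1.08 on MSA-DA against 0.893, 0.902 and 0.917 on MSA-ZW. It was above 1 in all 3 MSA-DA libraries and below 1 in all 3 MSA-ZW libraries. The difference of the log2 ratios was 0.23, with p = 0.10 in a two-sided exact permutation test, the smallest p that 3 against 3 allows, or 0.167 adjusted over 5 ratios. Where the ratio crosses 1 depends on the exon lengths used, which are those the authors deposited. The isoforms also differ in transcript GC content, at 43.7% for Hsp90aa1 and 51.0% for Hsp90ab1, and the ratio was not corrected for it. In the fit corrected for GC content and length, described below, their log2 differences were 0.13 and -0.04, against 0.18 and -0.05 uncorrected. The sum of both isoforms was 2280 ± 21.5 FPKM on MSA-DA against 2197 ± 34.5 FPKM on MSA-ZW, and Hsp90aa1 made up 51.5 ± 0.527% of it on MSA-DA against 47.5 ± 0.334% on MSA-ZW (SD, n = 3).

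**Figure D2:**
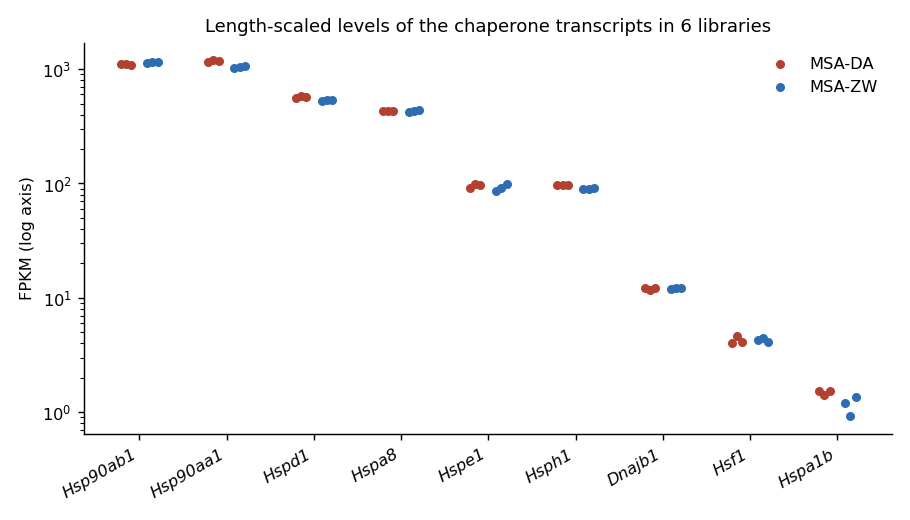
Length-scaled levels of 9 chaperone transcripts in the 6 libraries, in FPKM on a log axis, ordered by mean level, with MSA-DA left of MSA-ZW for each gene. Points are libraries. Levels run from means of 1175 and 1105 FPKM for Hsp90aa1 and Hsp90ab1 on MSA-DA to between 0.92 and 1.54 FPKM for Hspa1b, and Hsp90aa1 lies above Hsp90ab1 on MSA-DA and below it on MSA-ZW.

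Among the members that encode HSP70 itself, the constitutive Hspa8 was abundant and the inducible Hspa1a and Hspa1b had few reads. Hspa8 encodes HSC70, the constitutive cytosolic HSP70 (ENSMUSG00000015656, chromosome 9, 40712280 to 40721383, plus strand, GRCm39). Its levels were 1860, 1844 and 1859 CPM on MSA-DA against 1815, 1859 and 1895 CPM on MSA-ZW, with the MSA-DA libraries inside the range of the others. The log2 difference was -0.0017 ± 0.02 (SE, edgeR adjusted p = 0.972), and the 95% interval of the change was -2.87 to 2.71%. By length-scaled level Hspa8 averaged 429 ± 2.10 FPKM on MSA-DA against 432 ± 9.17 FPKM on MSA-ZW.

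Hspa1a and Hspa1b encode the strictly stress-inducible HSP70, and lie near each other on chromosome 17 (Hspa1a at 35188166 to 35191132, Hspa1b at 35175412 to 35178214, both on the minus strand, GRCm39). Hspa1b (ENSMUSG00000090877) had 62, 72 and 68 counts on MSA-DA against 56, 42 and 69 counts on MSA-ZW, and Hspa1a (ENSMUSG00000091971) had 0 counts in each MSA-DA library and 1 in each MSA-ZW library. Hspa1a was thus at or below the floor of 3 counts everywhere, and no difference was detectable at this depth. Scaled to library size, Hspa1b stood at 4.33, 3.94 and 4.31 CPM on MSA-DA against 3.38, 2.57 and 3.78 CPM on MSA-ZW. The libraries did not overlap, but the log2 difference of 0.36 had a standard error of 0.18 and did not pass (edgeR adjusted p = 0.220). Its 95% interval was -0.01 to 0.73 on the log2 scale. Summing both copies gave a log2 difference of 0.33 ± 0.18 (SE, edgeR adjusted p = 0.259). These copies are nearly identical, and the sources used here do not say how reads that match both were counted, so the levels of the pair are uncertain. Together they came to 0.00347 ± 0.000166 of the Hspa8 level in FPKM on MSA-DA against 0.00273 ± 0.000488 on MSA-ZW (exact permutation p = 0.10, adjusted 0.167).

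Dnajb1 encodes HSP40, the inducible J-protein that delivers clients to HSP70 and starts its ATPase (ENSMUSG00000005483, chromosome 8, 84334822 to 84339282, plus strand, GRCm39). Levels of Dnajb1 were 39.2, 37.9 and 39.0 CPM on MSA-DA against 38.4, 39.4 and 38.8 CPM on MSA-ZW. The libraries of the gels were intermixed, with a log2 difference of -0.0081 and a standard error of 0.06 (edgeR adjusted p = 0.952), and a 95% interval of -8.18 to 7.70%. Its ratio to Hspa8 in FPKM was 0.0280 ± 0.000394 on MSA-DA against 0.0281 ± 0.000567 on MSA-ZW (SD, n = 3, exact permutation p = 0.60).

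Hsph1 encodes HSP105, an HSP110-type chaperone that exchanges the nucleotide of HSP70 and helps to dissolve aggregates (ENSMUSG00000029657, chromosome 5, 149537752 to 149559841, minus strand, GRCm39). Its levels were 706, 700.3 and 707 CPM on MSA-DA, against 652, 648 and 662 CPM on MSA-ZW. The lowest MSA-DA library was well above the highest MSA-ZW library. The log2 difference was 0.11 ± 0.02 (SE, edgeR adjusted p = 0.00168), or 4.20 to 11.4% higher at 95% confidence, and it passed in all 6 fits that left out a library. Relative to Hspa8, its partner, Hsph1 stood at 0.225, 0.225 and 0.225 in FPKM on MSA-DA against 0.213, 0.206 and 0.207 on MSA-ZW. The difference of the log2 ratios was 0.11 (exact permutation p = 0.10, adjusted 0.167).

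Of the mitochondrial chaperonin genes Hspd1 passed and Hspe1 did not. Hspd1 encodes HSP60 (ENSMUSG00000025980, chromosome 1, 55116994 to 55127402, minus strand, GRCm39), and Hspe1 encodes its lid HSP10 (ENSMUSG00000073676, chromosome 1, 55127291 to 55130466, plus strand). The genes lie on opposite strands, and as annotated in the deposited table they overlap by 112 bases. Without the strand setting of the counting, reads from these 112 bases cannot be assigned to either.

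Hspd1 stood at 1491, 1529 and 1521 CPM on MSA-DA against 1398, 1419 and 1422 CPM on MSA-ZW, with no overlap. The log2 difference was 0.10 ± 0.02 (SE, edgeR adjusted p = 0.000775), which is 4.09 to 10.2% higher, and it passed in all 6 fits that left out a library. Hspe1 stood at 135, 145 and 143 CPM on MSA-DA against 125, 136 and 146 CPM on MSA-ZW. MSA-ZW replicate 3 was the highest of all 6 and MSA-ZW replicate 1 the lowest. The log2 difference of 0.06 with a standard error of 0.04 did not pass (edgeR adjusted p = 0.385), with a 95% interval of -1.57 to 10.5%. Without MSA-ZW replicate 3 it was 0.12 and passed (edgeR adjusted p = 0.0237). The ratio of Hspe1 to Hspd1 in FPKM was 0.167 ± 0.00404 on MSA-DA against 0.172 ± 0.0116 on MSA-ZW (SD, n = 3, exact permutation p = 0.60), so a difference in response between the partners was not shown.

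Hsf1 encodes the transcription factor that switches the heat shock genes on, and is itself controlled mainly at the protein level (ENSMUSG00000022556, chromosome 15, 76361622 to 76386113, plus strand, GRCm39). Hsf1 levels were 28.9, 32.8 and 29.2 CPM on MSA-DA against 30.4, 31.5 and 29.2 CPM on MSA-ZW. The highest and the lowest library were both MSA-DA libraries. The log2 difference was 0.00043 ± 0.07 (SE, edgeR adjusted p = 0.998), and its 95% interval of -0.14 to 0.14 bounds what these libraries could show.

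**Figure D3:**
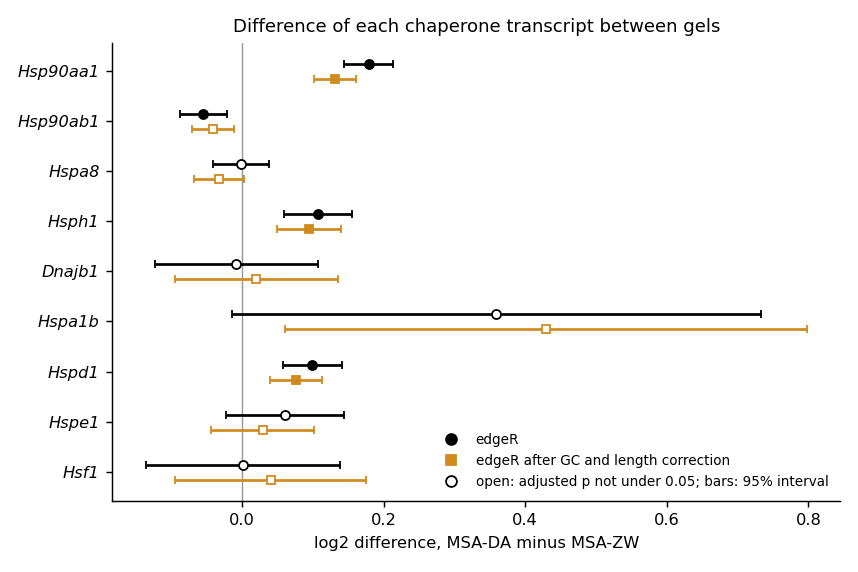
Log2 difference between MSA-DA and MSA-ZW for the 9 tested chaperone transcripts, from edgeR on the counts (black circles) and from the same test after correction for GC content and length (orange squares), with 95% intervals. Filled symbols have an adjusted p below 0.05. Hsp90aa1, Hsph1 and Hspd1 are filled in both fits, while Hsp90ab1 is filled only in the first, at -0.05 against -0.04 after correction.

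By length-scaled level the members ran from Hsp90ab1 and Hsp90aa1, ranked 19 and 21 of all genes by mean FPKM, through Hspd1 (571 ± 7.96 FPKM on MSA-DA against 536 ± 4.46 FPKM on MSA-ZW) and Hspa8, to Hspa1b. Hspe1 and Hsph1 could not be ordered, at 95.5 ± 3.61 and 96.6 ± 0.528 FPKM on MSA-DA against 92.1 ± 6.96 and 90.1 ± 1.13 FPKM on MSA-ZW. Dnajb1 followed at 12.0 ± 0.226 FPKM on MSA-DA against 12.2 ± 0.137 FPKM on MSA-ZW, and Hsf1 at 4.25 ± 0.304 FPKM on MSA-DA against 4.29 ± 0.155 FPKM on MSA-ZW (SD, n = 3).

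Genes that work with these chaperones were counted in 9 lists holding 111 genes, of which 98 could be tested. Of these, 15 were higher and 3 lower on MSA-DA, which is 15.3% and 3.06%, beside 6.92% and 6.5% of all tested genes. Many genes of the lists have many reads, and of 3695 genes averaging 64 CPM or more 26.8% passed in either direction. The same shares apply to the counts of each list below, which are not read as a result about that list. The median log2 difference was 0.03 over the 98 genes and 0.00085 over all tested genes. Among the 98 genes the number called fell to 9 without MSA-DA replicate 2, to 8 without MSA-DA replicate 3 and to 8 with limma on log2(FPKM + 1). After correction for transcript GC content and length 5 were higher and 4 lower, so that 5.10% were higher, beside 5.44% of all tested genes in that fit.

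Partners of HSP70 moved in few cases. Among other HSP70 and HSP110 genes 1 of 7 tested rose and 0 fell (median log2 difference 0.08). It was Hspa4l, an HSP110-type exchange factor like Hsph1, at 311, 318 and 314 CPM on MSA-DA against 272, 264 and 255 CPM on MSA-ZW. Hspa4l was 1.19-fold higher (edgeR adjusted p = 1.12e-07) and passed in all 18 alternative fits. Its relative Hspa4, with the most reads of the list, stood at 745, 769 and 764 CPM on MSA-DA against 711, 738 and 729 CPM on MSA-ZW and did not pass (edgeR adjusted p = 0.0674). Among J-proteins 3 of 15 rose and 0 fell (median 0.07). Dnaja1, a cytosolic HSP40, was 1.08-fold higher, the ribosome-bound Dnajc2 1.09-fold and Dnajb4, a relative of Dnajb1, 1.16-fold. Dnaja1 and Dnajc2 did not pass once MSA-DA replicate 2 was left out (edgeR adjusted p of 0.0770 and 0.0681), and Dnajb4 lost its call when any library other than MSA-ZW replicate 2 was left out (0.0828 to 0.112). Among BAG and other HSP70 regulators 0 of 9 rose and 1 fell (median 0.02). Bag6, which handles mislocalised hydrophobic proteins, was 1.08-fold lower, and did not pass once MSA-DA replicate 2, MSA-DA replicate 3 or MSA-ZW replicate 3 was left out (0.129, 0.0771 and 0.171). St13, with the most reads of them, which binds HSP70 and HSP90, had a log2 difference of 0.08 (edgeR adjusted p = 0.0647).

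HSP90 co-chaperones moved both ways, with 3 of 14 higher and 1 lower (median log2 difference -0.03). Ppid, the cyclophilin that docks on the HSP90 tail, stood at 252, 249 and 244 CPM on MSA-DA against 211, 212 and 214 CPM on MSA-ZW. It was 1.17-fold higher (edgeR adjusted p = 7.25e-07) and passed in all 18 alternative fits. Chordc1, an HSP90-binding co-chaperone, was 1.09-fold higher and Ahsa2, a relative of the HSP90 ATPase activator Ahsa1, was 1.14-fold higher. Fkbp4, the immunophilin of steroid receptor complexes, was 1.08-fold lower. Chordc1 did not pass once MSA-DA replicate 3 was left out (edgeR adjusted p = 0.0856) and Fkbp4 without MSA-DA replicate 1 (0.0519). Ahsa2 lost it when any library other than MSA-ZW replicate 1 was left out (0.0858 to 0.152), with the replicate number as a block (0.0515) and with DESeq2 (0.131). Ptges3, or p23, the co-chaperone with the most reads, stood at 439, 453 and 449 CPM on MSA-DA against 421, 429 and 434 CPM on MSA-ZW (edgeR adjusted p = 0.121).

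The chaperonin of the cytosol, CCT, and prefoldin gave 1 gene higher and 1 lower of 14 tested (median log2 difference 0.0063). Cct3, a CCT subunit and the gene with the most reads here, was 1.07-fold lower, at 799, 802 and 826 CPM on MSA-DA against 848, 861 and 897 CPM on MSA-ZW (edgeR adjusted p = 0.00402). Vbp1, a prefoldin subunit, was 1.10-fold higher and did not pass once MSA-DA replicate 2, MSA-DA replicate 3 or MSA-ZW replicate 2 was left out (edgeR adjusted p of 0.174, 0.0709 and 0.149). No other CCT subunit passed with all libraries and uncorrected counts.

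Other chaperones and proteases of the mitochondrion rose in 4 of 15 tested and fell in 0 (median log2 difference 0.04). Many genes of this list average 64 CPM or more, and 26.8% of all such genes passed in either direction. So 4 of 15 is not read as a result about mitochondria. Hspa9, the mitochondrial HSP70, was 1.06-fold higher at 1120, 1122 and 1139 CPM on MSA-DA against 1035, 1091 and 1065 CPM on MSA-ZW. Yme1l1 and Afg3l2, proteases of the inner membrane, were both 1.09-fold higher, and Grpel2, an exchange factor for mitochondrial HSP70, was 1.16-fold higher. Yme1l1 passed in all 6 fits that left out a library. Hspa9 did not pass once MSA-DA replicate 2, MSA-DA replicate 3 or MSA-ZW replicate 1 was left out (edgeR adjusted p of 0.0801, 0.109 and 0.0866), and Afg3l2 without MSA-DA replicate 1 or MSA-DA replicate 3 (0.104 and 0.0539). Grpel2 lost it when any library other than MSA-ZW replicate 3 was left out (0.0583 to 0.153).

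In the endoplasmic reticulum 3 of 15 chaperones rose and 0 fell (median log2 difference 0.03). Hsp90b1, the HSP90 of that compartment, was 1.05-fold higher, and Pdia3 and Canx, which fold glycoproteins, were both 1.06-fold higher. Hsp90b1 did not pass once MSA-DA replicate 3 was left out (edgeR adjusted p = 0.0726), Pdia3 without MSA-DA replicate 1 (0.0524) and Canx without MSA-DA replicate 2, MSA-DA replicate 3 or MSA-ZW replicate 2 (0.0978, 0.0706 and 0.0612). Calr, the gene with the most reads, stood at 2505, 2505 and 2479 CPM on MSA-DA against 2397, 2457 and 2494 CPM on MSA-ZW and did not pass (edgeR adjusted p = 0.383).

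**Figure D4:**
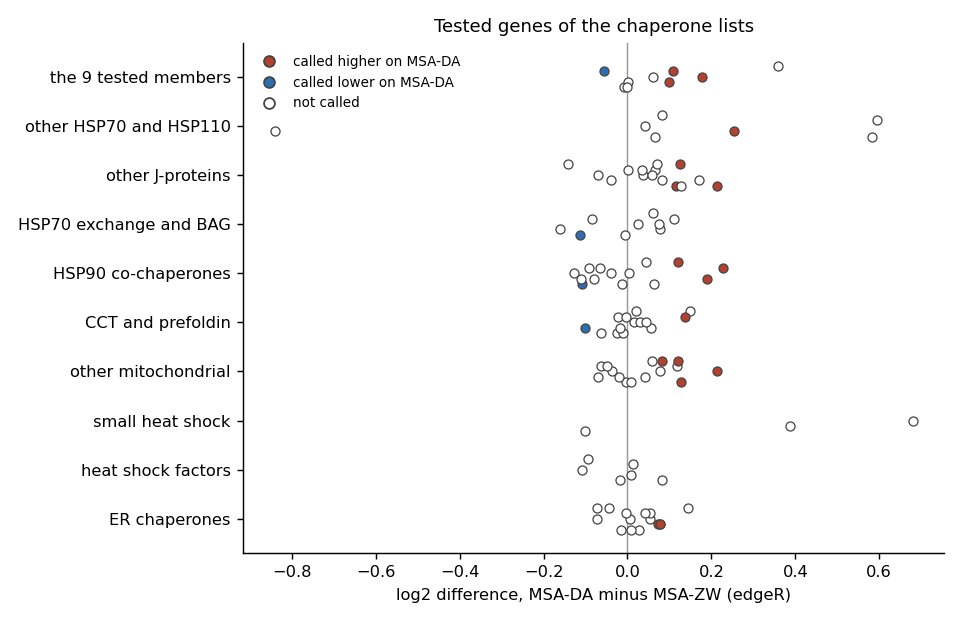
Log2 difference between MSA-DA and MSA-ZW for each tested gene of the members and of the 9 further lists, 1 row of points per list. Red points passed higher on MSA-DA, blue points lower, and white points did not pass. The 15 red and 3 blue points of the further lists lie within 0.26 of 0, and the widest white points belong to genes with few counts.

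Transcript GC content moved with these differences. Over 12329 tested genes with a known GC content, the median log2 difference was 0.06 in the quartile with the least GC and -0.07 in the quartile with the most. The 15 chaperone genes of the further lists that rose had a median GC content of 42.0%, the 3 that fell 55.5% and the 80 that did not pass 50.4%. Among the members, Hsp90aa1 had 43.7% GC, Hspd1 46.8%, Hsph1 47.3% and Hsp90ab1 51.0%, but Hspe1 and Hspa8, which did not pass, had 45.5% and 45.9%. With GC content and length corrected for, the log2 differences were 0.13 for Hsp90aa1, 0.09 for Hsph1 and 0.08 for Hspd1, and all 3 still passed (edgeR adjusted p of 3.76e-09, 0.00258 and 0.00302). Hsp90ab1 then had -0.04 and did not pass (0.0571). Of the 15 further genes that rose, 4 still passed, namely Hspa4l, Ppid, Afg3l2 and Pdia3 (2.84e-07, 2.13e-05, 0.00922 and 0.0316). Cct3 was lower in both fits (1.01e-04 after correction). The correction also added 4 calls, named here after their values were seen. Lonp1, a protease of the mitochondrial matrix, was then higher by 0.10 on the log2 scale (edgeR adjusted p = 0.0101). The CCT subunit Cct7, the endoplasmic reticulum HSP70 relative Hspa13 and the heat shock factor Hsf2 were then lower, with log2 differences of -0.10, -0.14 and -0.18 (edgeR adjusted p of 0.00475, 0.0138 and 0.0446). Uncorrected, these 3 had -0.06, -0.07 and -0.09 and did not pass (edgeR adjusted p of 0.102, 0.296 and 0.338). The correction also removes any difference between the gels that itself runs with GC content, and both cannot be told apart.

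**Figure D5:**
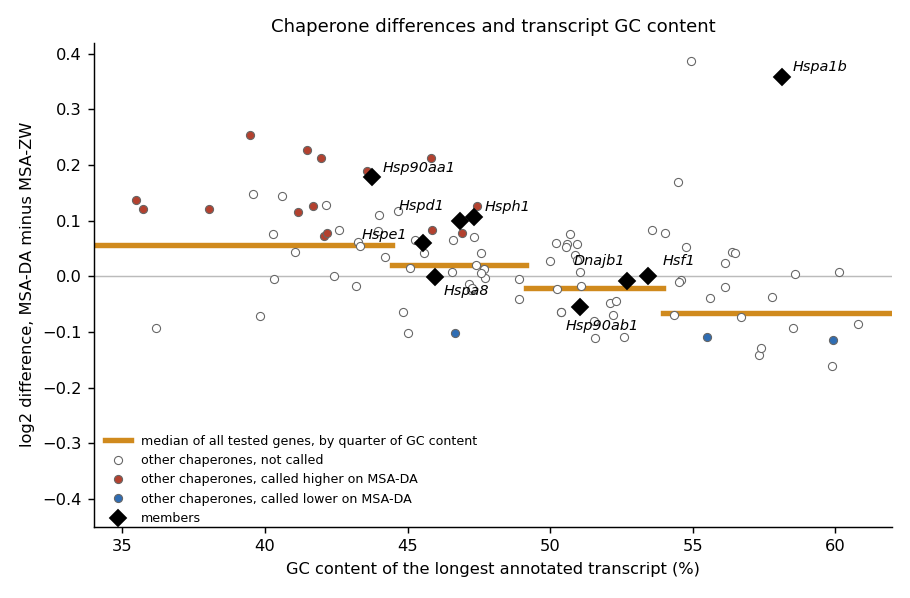
Log2 difference between MSA-DA and MSA-ZW against the GC content of the longest annotated transcript, for the members (black diamonds) and the genes of the further lists (circles, red where higher, blue where lower, white where not called). Orange lines are the median of all tested genes in each quartile of GC content, from 0.06 at low GC to -0.07 at high GC. Hsp90aa1, Hspd1 and Hsph1 lie above the median of their quartile and Hspa8 below it, and 4 genes with larger differences and few counts are outside the plotted range.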

How the data were processed

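The submitters' processing notes name GRCm39 and the tools HISAT2 2.2.1, cutadapt 1.9.1 and bcl2fastq 2.20.0.422. The sources used here do not give the counting tool, strand setting or annotation release. The authors deposited raw counts and FPKM values for each library in 1 table, per the file headers. The deposited FPKM values equal the count divided by exonic length and library total, within 0.011 for 100% of genes. The exonic length, in bases, is another deposited value (not an expression unit). Groups and replicate numbers come from the library titles.

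Counts were tested with edgeR 4.0.16 in R 4.3.3 (gel as the only factor, TMM factors, filterByExpr, then glmQLFit and glmQLFTest) over the whole table, with Benjamini-Hochberg adjustment over 12467 tested genes and a threshold of 0.05. CPM levels use TMM-scaled library sizes. The standard error is the log2 difference divided by the square root of F, and intervals cover 95%. Ratios of FPKM were tested by exact permutation over libraries (SciPy 1.17.1), and adjusted over 5 ratios. The fit was tested on simulated data. GC content came from the longest GENCODE M21 transcript of each gene, matched on gene ID, and was known for 95.6% of genes with a count and for all 10 members. The correction was a loess fit (span 0.5) per library on GC content and length.

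Members and lists were chosen with earlier results of these data known. Named genes are the members and, in each list, the tested gene with the highest mean CPM and up to 5 called genes with the smallest adjusted p. DESeq2 1.42.0 and limma 3.58.1 (log2 of FPKM plus a pseudocount of 1 or 0.1) were alternatives. Values under 3 counts are at the floor, and intervals cover counting error and the spread between libraries only.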

Additional observations from a re-analysis of the deposited data

How the results depend on the processing

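Hsph1 passed in all 18 alternative fits, and Hsp90aa1 and Hspd1 in 17, failing only with limma on log2(FPKM + 1) without a filter on low values (limma adjusted p of 0.0761 and 0.127). Hsp90ab1 passed in 11 of 18. The 1673 genes called in all became 964 with DESeq2, 906 with limma on log2(FPKM + 1), 895 with a pseudocount of 0.1, 412 with limma without a filter and 1001 to 1654 when 1 library was left out. The 4 members called became 1 with limma without a filter and 3 to 5 when 1 library was left out. The 18 genes called in the further lists became 8, 6 and 3 in those limma fits, 9 after the GC and length correction and 8 to 21 when 1 library was left out. The cause of these changes was not tested. Among the members and the ratios, signs turned for values near 0 that never passed. Genes of the further lists with few counts moved more, such as Dnajb5 (log2 difference 0.17, range -0.06 to 0.39) and Hspa2 (0.08, range -0.29 to 0.32), and neither passed in any alternative. When 1 library was left out Dnajb1 had -0.022 to 0.0035 and Hspa8 -0.021 to 0.013, and Dnajb1 had 0.020 after the GC and length correction. Hsf1 had -0.0039 with DESeq2, -0.00062 with RLE factors, -0.0071 with count totals alone, -0.00078 with the 10 CPM filter, -0.011, -0.014 and -0.011 in the limma fits, -0.0046 with the replicate block, -0.0046 without mitochondrial and ribosomal-RNA-like loci and -0.070 to 0.028 when 1 library was left out. The log2 ratio of Hspe1 to Hspd1 differed by -0.085 to 0.012, and that of Dnajb1 to Hspa8 by -0.023 to 0.0058, when 1 library was left out. Deviations of same-numbered libraries correlated at 0.011, 0.017 and -0.0025 across genes. No pairing by replicate number was thus seen, but values near 0 over all tested genes cannot exclude it. With the replicate number as a block 1594 genes, 4 members and 17 further genes were called. The summed Hspa1 pair fell under the 10 CPM filter and has no value there. Its log2 difference was 0.19 to 0.46 when 1 library was left out and never passed. Small differences in Hspa1b, Dnajb1, Hsf1 and Hspe1 are limited by depth and spread, as their intervals show.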

Other observations

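The genes listed as small heat shock proteins had few reads. Such proteins are ATP-independent holdases that heat induces strongly in many cells. Hspb11 was listed by its symbol and is not taken as one of them. Of 10 genes 3 could be tested and none passed with edgeR. Hspb11 had a log2 difference of -0.10, Hspb6 0.39 and Hspb8 0.68 (edgeR adjusted p of 0.652, 0.183 and 0.334). Hspb6 stood at 3.84, 3.88 and 4.31 CPM on MSA-DA against 2.60, 3.06 and 3.51 CPM on MSA-ZW. Hspb1, which encodes HSP25, had at most 0.0635 CPM on MSA-DA against 0.121 CPM on MSA-ZW, and Cryaa, Hspb2 and Hspb3 had no count in any library. Heat shock factors and their modifiers held 6 tested genes of 10, and 0 passed with edgeR on uncorrected counts. Hsf2, which can pair with HSF1, stood at 38.6, 40.3 and 37.6 CPM on MSA-DA against 39.2, 43.6 and 41.6 CPM on MSA-ZW (edgeR adjusted p = 0.338), but passed lower after the GC and length correction (edgeR adjusted p = 0.0446), and Hsf3 had no count in any library. Ep300, an acetyltransferase that acts on HSF1 and the gene with the most reads of the list, had a log2 difference of -0.02 (edgeR adjusted p = 0.820).

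Reads were also counted to a further row that carries a chaperonin name. Hspd1-ps3, a pseudogene of Hspd1, had 464, 623 and 485 counts on MSA-DA against 486, 465 and 493 counts on MSA-ZW. Reads shared with such a copy add uncertainty to Hspd1.

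Across the 6 libraries, the mean profile of Hspa1a, Hspa1b, Hsph1, Dnajb1 and Hsp90aa1 was most like those of Gemin7, Rmnd5a, Isy1, Prpf18 and Cebpa, with Pearson r of 0.976, 0.968, 0.964, 0.963 and 0.959 among 8517 genes. That profile followed Hspa1b (r = 0.816) far more than Hsp90aa1 (0.274) or Dnajb1 (-0.149), so it mostly carries the counts of a low gene. Hspa1a, with 0 counts in each MSA-DA library and 1 in each MSA-ZW library, also entered it (r = -0.285). The genes named as alike had log2 differences between the gels of only 0.00083 to 0.022, against 0.18 for Hsp90aa1. They thus do not share its difference between the gels. These values are a description over 6 libraries in 2 groups.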
